A study of Rattus norvegicus with 6 samples.

Results

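Vascular smooth muscle cells (VSMCs) form the contractile layer of arteries, and SLC2A10 encodes the glucose transporter GLUT10. A run of 4 neighbouring loci on chromosome 18, between 55466665 and 55704904 in the coordinates of the deposited files, was examined in RNA-seq of these cells with and without interference against SLC2A10. A locus belonged to the run when all of its transcript start and transcript end events lay within these bounds, and 4 of the 13685 loci in the files met this rule. The bounds had been chosen on the fall of these loci in the knockdown libraries against the controls, so the fall is given below as a description and was not tested. The members were XLOC_020356 (ENSRNOG00000038960), XLOC_020358 (ENSRNOG00000019542), XLOC_020359 (ENSRNOG00000038957) and XLOC_020361 (ENSRNOG00000038955). All 4 were placed on the plus strand. A genome build for these coordinates was not given in the sources used here.

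This stretch was expected to hold genes of immunity-related GTPases. As background, these are interferon-induced proteins of rodents that bind GTP and gather on the vacuoles in which intracellular pathogens live, and their genes lie in clusters of similar copies. Their transcription is known to depend on interferon receptors, the JAK kinases and the STAT factors. The expectation could not be checked. The loci carry Ensembl gene IDs, and 0 of the 12224 IDs in the files were paired with a gene name in the RefSeq table of the rat assembly GRCr8 used here. On chromosome 18 of GRCr8, RefSeq lists 4 protein-coding genes with Ifgga in their symbol or synonym, a name used for interferon-inducible GTPases. Ifgga genes of any kind there number 6. The 4 protein-coding genes lie between Chsy3 and Smim3, in the order RGD1309362 (synonym Ifgga1), Ifgga2l1, Ifgga4l and Ifgga2l2, with LOC134483037 between the first and second. None of these was assigned to a locus of the files, because the coordinates of GRCr8 were not matched to those of the files. The loci are therefore called by their identifiers, and no promoter or protein sequence is shown for them.

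The 6 libraries came from material labelled as VSMCs of the aorta of SD (Sprague-Dawley) rats. The control group had 2 libraries, labelled wild type, and the study describes its control cells as infected with control virus. The other 4 libraries, labelled SLC2A10-/-, comprised 2 for each of the interference sequences called 2 and 3 in the sample titles, and they are called knockdown libraries here after the study's description of short hairpin RNA delivered by virus. The labels also mention siRNA, mice and frozen aorta, whereas the study describes sequencing of cultured, virus-infected cells. The labels do not say that replicates came from separate cultures, so a p-value covers the spread among these libraries alone, and that spread may be technical. The level of SLC2A10 and the markers of smooth muscle and other cell types could not be read without gene names. Every direction here therefore rests on the labels, and fewer cells of a type cannot be told apart from less RNA per cell. The study states that it checked the interference by qPCR, and its text gives no value for this.

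Each event carried an FPKM, a unit that corrects fragment numbers for the length of the transcript and the size of the library. The start FPKM of a locus were summed, its end FPKM were summed, and the larger sum was taken as its level, or 0 where a library did not list the locus. The read depth is unknown, and the number of listed loci lay between 11564 and 11856. Sequence 3 replicate 2 listed the fewest and stood apart on the second principal component, at 36.8 against -21.8 to 10.4 in the other libraries. Among loci at or above an FPKM of 10 in all 5 other libraries, 0 of 3819 to 3882 were unlisted in each of the controls and the libraries of sequence 2. In sequence 3 replicates 1 and 2, 3 of 3818 and 4 of 3886 such loci were unlisted. A missing entry can be a failed estimate, so such loci are described as unlisted and not as silent.

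All 4 loci were listed in both controls and were far lower or unlisted in every knockdown library. Each of them lay at least 4-fold lower in the mean of the 4 knockdown libraries on the log2(FPKM + 1) scale, with no overlap between the groups. Of 10648 loci that reached an FPKM of 1 in 2 or more libraries, 150 did so, which is 1.41%. Since the loci were chosen by this contrast, nothing is read from their 4 of 4. All 4 passed the filter on low values, 2 of them (XLOC_020359 and XLOC_020361) through the controls alone. The median change of the 4 loci was -4.43 on the log2(FPKM + 1) scale, beside 0.0819 for all loci that passed the filter. The summed level of the 4 loci was an FPKM of 190 and 192 in the controls, against 3.08 and 2.42 with sequence 2 and 5.99 and 2.45 with sequence 3. This sum was 0.0638% and 0.0602% of the summed FPKM of the control libraries, and 0.000666% to 0.00184% of that of the knockdown libraries.

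**Figure D1:**
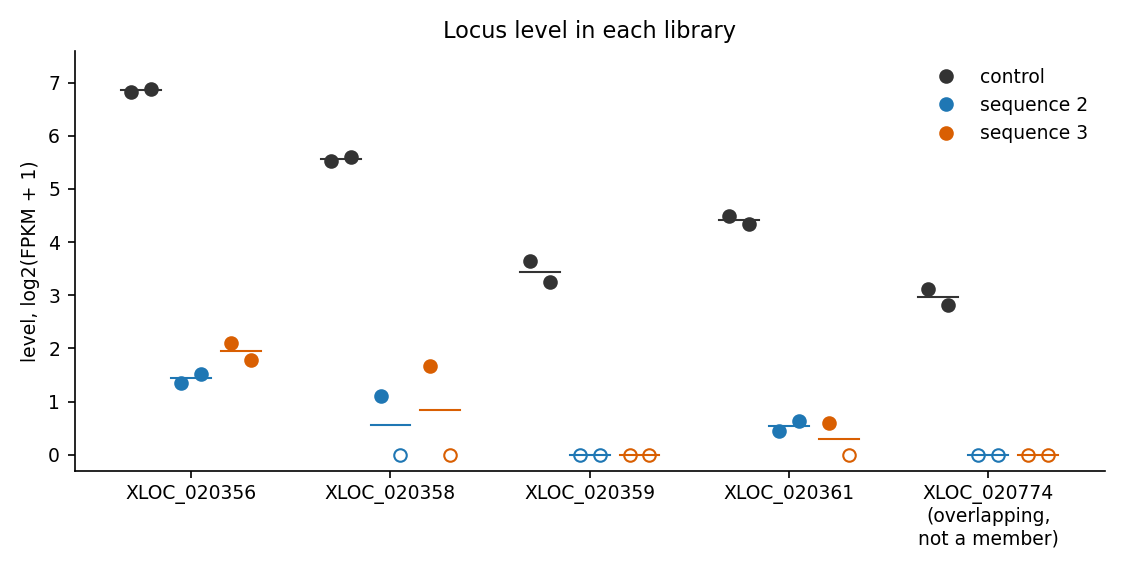
Level of each locus in each library, as log2(FPKM + 1), with 2 control, 2 sequence 2 and 2 sequence 3 libraries per locus. Filled points are listed values, open points are unlisted loci set to 0, and short lines are group means. At every locus both controls lie above all 4 knockdown libraries, and XLOC_020359 and XLOC_020774 are unlisted in all 4 of the latter.

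XLOC_020356, the leftmost member and by level the most abundant, extended over 42194 bases from 55466665 to 55508858 by its start and end events. Its level was an FPKM of 113 and 117 in control replicates 1 and 2, 1.56 and 1.87 with sequence 2, and 3.31 and 2.45 with sequence 3. The controls were alike, and the lowest control exceeded the highest knockdown library 34.1 times. The control mean of 115 ± 3.03 (SD, n = 2) was 66.8 times the mean with sequence 2, 1.72 ± 0.220 (SD, n = 2), and 39.9 times the mean with sequence 3, 2.88 ± 0.606 (SD, n = 2). It was the only member listed in all 6 libraries. By the size of its fall it ranked 24th of the 10648 loci.

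XLOC_020358 lay 67380 bases to the right, from 55576239 to 55584957. Its level was an FPKM of 44.9 and 47.8 in the controls. It was 1.14 in sequence 2 replicate 1 and 2.17 in sequence 3 replicate 1, and the locus was unlisted in replicate 2 of both sequences. The listed and unlisted libraries thus divided by replicate number and not by sequence. The control mean was 46.3 ± 2.05 (SD, n = 2), and the change over all 4 knockdown libraries was -4.87 on the log2(FPKM + 1) scale. No fold change is given for a group with an unlisted library.

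XLOC_020359 followed after 20855 bases, from 55605813 to 55669645, and was the longest locus of the run at 63833 bases by its outermost events. Both lengths rest on a left start that was listed in control replicate 2 alone. From its right start the locus extended over 12029 bases. Its level was an FPKM of 11.5 and 8.47 in the controls, a mean of 9.97 ± 2.11 (SD, n = 2), and it was unlisted in all 4 knockdown libraries. It was the least abundant member and had the smallest change on the log2(FPKM + 1) scale, -3.44. With the knockdown libraries at 0 this change is set by the control level and the pseudocount.

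XLOC_020361 closed the run 15967 bases further on, from 55685613 to 55704904. Its level was an FPKM of 21.4 and 19.2 in the controls, 0.371 and 0.543 with sequence 2, and 0.509 in sequence 3 replicate 1. It was unlisted in sequence 3 replicate 2. The control mean of 20.3 ± 1.55 (SD, n = 2) was 44.4 times the mean with sequence 2, 0.457 ± 0.122 (SD, n = 2), and the change over all knockdown libraries was -3.99 on the log2(FPKM + 1) scale. Sequence 3 replicate 2, the library that stood apart, thus listed only 1 of the 4 loci. The others listed 3 (sequence 2 replicate 1 and sequence 3 replicate 1) or 2 (sequence 2 replicate 2).

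By their levels the loci kept one order of FPKM, a unit per transcript length, in the controls. XLOC_020356 was 2.48 times as high as XLOC_020358 by the control means, XLOC_020358 was 2.28 times as high as XLOC_020361, and XLOC_020361 was 2.04 times as high as XLOC_020359. By level no neighbours in this order overlapped between their control libraries, and the narrowest gap was between 19.2 for XLOC_020361 and 11.5 for XLOC_020359. The level of XLOC_020356 is its summed starts. Its summed ends in control replicates 1 and 2, 84.0 and 46.6, overlapped the 44.9 and 47.8 of XLOC_020358. Its place above XLOC_020358 therefore rests on starts. With 2 controls this order was not tested. XLOC_020356 held 59.2% and 60.8% of the summed level of the run in the controls. It held 50.8% and 77.5% with sequence 2, and 55.2% and 100% with sequence 3, where the sums were small and the highest shares came from libraries that did not list XLOC_020358. Across the 6 libraries the levels of the members on the log2(FPKM + 1) scale correlated at 0.966 to 0.993 in all pairs (Pearson's r, n = 6). This is a description of loci chosen for a common fall, and it is largely the step between controls and knockdown libraries.

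The start and end events showed which transcripts were counted. For XLOC_020358, XLOC_020359 and XLOC_020361 the summed starts equalled the summed ends in every library that listed them. In the series, the sums were equal within 0.1% in 74.2% of the cases in which a locus above the filter had both listed in a library. XLOC_020356 differed, with summed starts of 113 and 117 in controls against summed ends of 84.0 and 46.6. In all 4 knockdown libraries it had a start and no end. A start without an end was found in 6.93% of listed cases over loci above the filter. When only ends were summed, XLOC_020356 was therefore unlisted in all knockdown libraries, and its change was -5.99 on the log2(FPKM + 1) scale.

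The main start of XLOC_020356, an interval of 242 bases from 55498181 to 55498422, carried 100% of the start FPKM in control replicate 1 and 90.1% in control replicate 2. It was the only event of the locus in any knockdown library. A start at 55478364, 19817 bases to the left, was listed in control replicate 2 alone with an FPKM of 11.6. Of the 3 end events, 2 share the right boundary 55467743 and lie 10620 bases to the left of the leftmost start. On the plus strand these ends cannot belong to transcripts from either listed start. They held 100% of the end FPKM in control replicate 1 and 52.7% in control replicate 2. The third end, from 55506310 to 55508858, was listed in control replicate 2 alone, with an FPKM of 22.1.

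XLOC_020356 also held the only splicing events of the run, 2 alternative exon events that share the left boundary 55463482 and end at 55463791 and 55464051. A splicing event of some kind was listed for 44.5% of loci above the filter. The exon begins 3183 bases to the left of the run. The shorter form had an FPKM of 57.4 and 25.9 and the longer form 26.6 and 20.7 in control replicates 1 and 2, and neither was listed in a knockdown library. In each control the 2 forms summed to the same FPKM as all ends, 84.0 and 46.6. In control replicate 2 the shorter form equalled the sum of the end at 55466665 and the right end at 55506310. The deposited values thus join the left exon with ends on both sides of the main start within 1 locus, and start events for the left exon were not listed. Whether XLOC_020356 is 1 gene or 2 neighbouring genes merged in assembly was not tested.

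**Figure D2:**
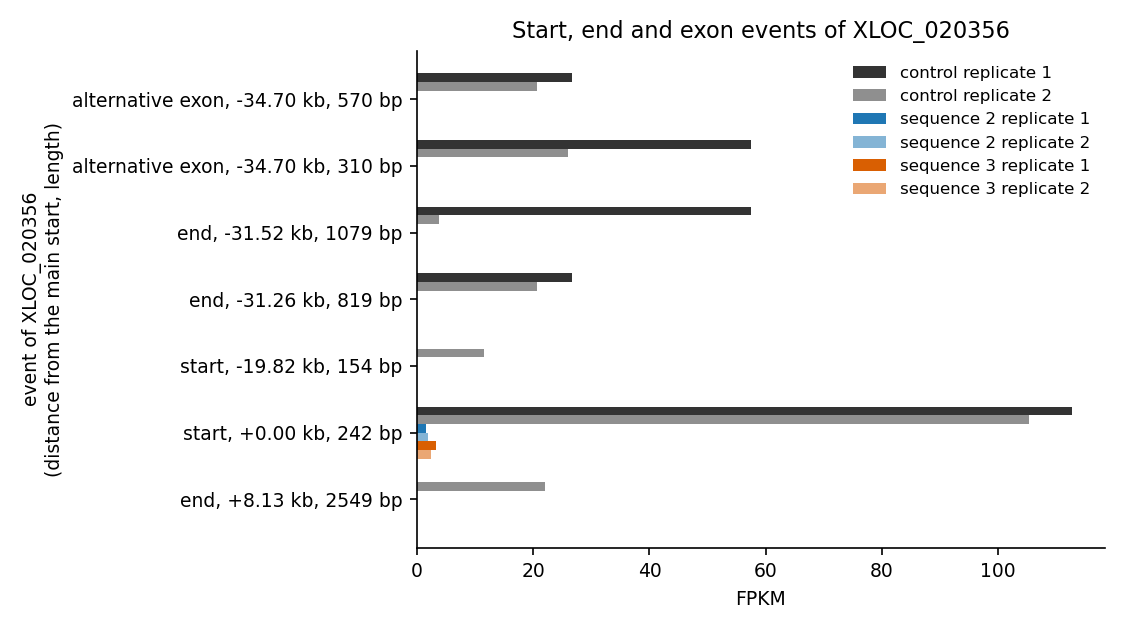
FPKM of each start, end and alternative exon event of XLOC_020356 in the 6 libraries, ordered by distance in kb from the main start, with the length of the event in bases. Only the main start has bars in the knockdown libraries, at 1.56 to 3.31, against 113 and 105 in the controls.

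The other members had simpler structures. XLOC_020358 had 2 start events with the same left boundary, 55576239, and lengths of 100 and 243 bases. They differ in where the interval ends and not in where it begins. The shorter carried 58.4% of the start FPKM in control replicate 1, and it was the only start in control replicate 2 and in both knockdown libraries that listed the locus. XLOC_020359 had 2 starts 51804 bases apart. The right one, from 55657617 to 55657773, carried 100% and 88.7% of the start FPKM in the controls, and the left one, at 55605813, was listed in control replicate 2 alone with an FPKM of 0.957. XLOC_020361 had 1 start, of 99 bases, and 1 end. More than 1 start event was listed for 31.8% of loci above the filter. The single end events of XLOC_020358, XLOC_020359 and XLOC_020361 were 1494, 3441 and 2024 bases long. The listed start events differed between the 2 controls in each of the 3 loci that had more than 1. No change in their use with knockdown can therefore be read.

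XLOC_020774 (ENSRNOG00000041577), on the minus strand from 55463730 to 55506543, lay just outside the rule, because its end event began to the left of the run. Its level was an FPKM of 7.68 and 6.02 in the controls, and it was unlisted in all 4 knockdown libraries. Its start event, of 148 bases, lay wholly within the right end event of XLOC_020356 on the opposite strand, and its end event, of 268 bases, lay wholly within the longer alternative exon of that locus. Whether strand was used in counting was not given in the sources used here, and without strand the reads of the 2 loci cannot be told apart. Its value therefore cannot be taken as that of an independent locus. Its end event was listed in control replicate 2 alone, with an FPKM of 0.842. The right end event of XLOC_020356 was also listed in control replicate 2 alone, whereas the start of XLOC_020774 was listed in both controls. If the members are similar copies of a family, reads could also have been split among them, which was not tested.

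None of the nearest loci beyond the run and XLOC_020774 lay 4-fold lower, though on the left the next one was distant. The next locus above the filter to the left, XLOC_020354 (ENSRNOG00000050152), lay 970079 bases away and had an FPKM of 9.42 and 6.69 in controls and 5.67 to 7.51 in knockdown libraries. Beyond it, XLOC_020349 (ENSRNOG00000019711) had a difference between knockdown and control of -0.40 and XLOC_020768 (ENSRNOG00000043219) of 0.14 on the log2(FPKM + 1) scale. To the right, XLOC_020782 (ENSRNOG00000019536), on the minus strand 39905 bases away, was erratic, with an FPKM of 4.11 in control replicate 1, 30.3 in sequence 2 replicate 1 and 5.08 in sequence 3 replicate 2, and was unlisted in the other 3 libraries. XLOC_020363 (ENSRNOG00000019298), 92293 bases away, had an FPKM of 17.4 and 17.3 in controls and 15.4 to 20.3 in knockdown libraries. XLOC_020364 (ENSRNOG00000019235) had a difference of 0.12 and XLOC_020783 (ENSRNOG00000019181) of 0.66 on the same scale. Controls and knockdown libraries overlapped at each of these neighbours except at XLOC_020349, which was lower in all 4 knockdown libraries, and XLOC_020783, which was higher in all 4.

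Within 2000 kb of the centre of the run, the 19 loci above the filter other than the 4 members and XLOC_020774 differed by -0.40 to 0.84, with a median of 0.09 on the same scale. On the whole of chromosome 18, 5 of 261 loci above the filter lay at least 4-fold lower without overlap, and these were the 4 members and XLOC_020774. In all, 36 of the 150 such loci of the series lay in 9 runs of at least 3 consecutive loci above the filter. The run on chromosome 18, with XLOC_020774 counted, was 1 of 3 runs of 5 or more, beside 6 loci on chromosome 2 and 5 on chromosome 16. Without XLOC_020774, which cannot be taken as an independent locus, it holds the 4 members and is not among the runs of 5 or more. Runs were counted after the values were known, and no test was made of their length.

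**Figure D3:**
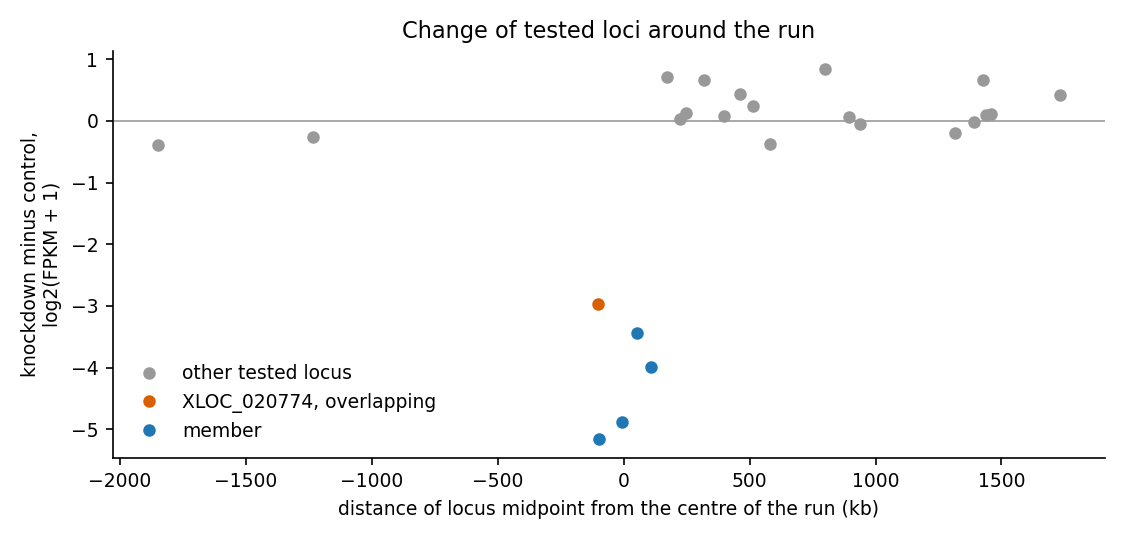
Change of each locus above the filter within 2000 kb of the centre of the run, as knockdown minus control on the log2(FPKM + 1) scale, against the distance of its midpoint in kb. The 4 members and XLOC_020774 lie between -2.96 and -5.16, and the other 19 loci lie between -0.40 and 0.84.

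The difference between the interference sequences was not used to choose the loci and could be tested. With limma over all 10648 loci, 10 were called at an adjusted p under 0.05, which is 0.0939%, and neither XLOC_020356 nor XLOC_020358 was among them. At an unadjusted p under 0.05 there were 580 of the 10648 loci, XLOC_020356 included. XLOC_020356 was higher in both libraries of sequence 3 than in both of sequence 2, by 0.51 on the log2(FPKM + 1) scale (standard error 0.155, 95% interval 0.12 to 0.89, unadjusted p = 0.0185, adjusted p = 0.734 from limma). This did not pass the correction for the number of loci tested. For XLOC_020358 the difference was 0.28 with an interval of -1.22 to 1.78 (adjusted p = 0.891 from limma). This interval does not show that the sequences act alike. XLOC_020361 and XLOC_020359 had passed the filter through the controls alone. Every knockdown value of XLOC_020361 was under an FPKM of 1. Its difference, -0.24 with an interval of -0.85 to 0.36, is given as a description, and nothing is read from the interval. XLOC_020359 was unlisted with both sequences and gives no measure of a difference. As a description, sequence 3 lay above sequence 2 without overlap at 1 of the 4 members, at 57 of the 150 loci with a 4-fold fall (38.0%) and at 26.4% of all loci above the filter. It lay below sequence 2 without overlap at 0 of the 4 members, at 7 of the 150 loci (4.67%) and at 11.6% of all loci above the filter. XLOC_020359, unlisted with both sequences, could not enter either count, and XLOC_020361 was compared at values under an FPKM of 1. The 150 loci were selected by their low knockdown values. Only 66 of them had an FPKM of at least 1 in all libraries, so the rest lay below this in at least 1 library. Nothing is read from the difference between these shares.

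**Figure D4:**
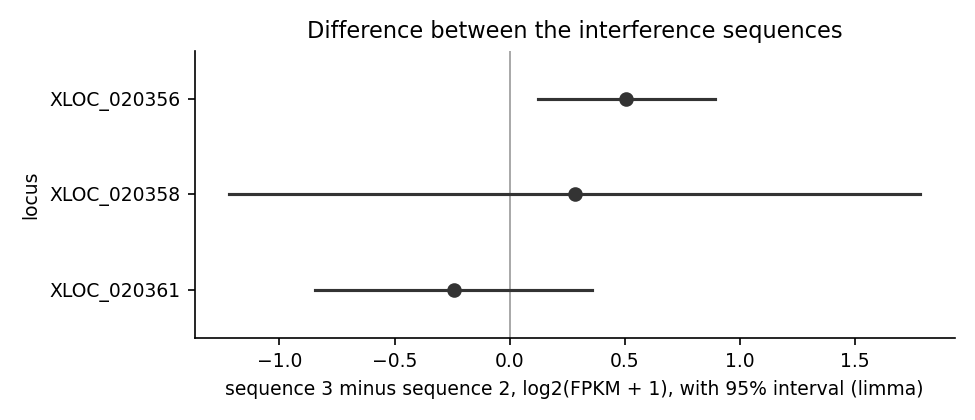
Difference between sequence 3 and sequence 2 on the log2(FPKM + 1) scale for the 3 members listed in a knockdown library, with the 95% interval from limma. The interval of XLOC_020356 lies above 0 before correction for the number of loci, and that of XLOC_020358 includes 0. XLOC_020361 passed the filter through the controls alone, so its interval is drawn as a description and nothing is read from it.

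The loci elsewhere with the most similar profile were sought by the correlation of log2(FPKM + 1) over the 6 libraries with the mean standardized profile of the 4 members. With 2 high and 4 low libraries such a correlation is easily high, and 97 loci outside the run reached 0.99. The highest was XLOC_029343 (ENSRNOG00000006227) on chromosome 3, at 0.9998, with an FPKM of 47.3 and 41.6 in controls and at most 2.38 in knockdown libraries. It was followed by XLOC_023776 (ENSRNOG00000028768) on chromosome 2 and XLOC_032826 (ENSRNOG00000023969) on chromosome 4, whose knockdown means differed from the control means by -4.97 and -5.25 on the log2(FPKM + 1) scale. XLOC_046794 (ENSRNOG00000014079) on chromosome 9 had an FPKM of 110 and 117 in controls and 8.91 to 11.3 in knockdown libraries. The correlation takes no account of size, since XLOC_012464 (ENSRNOG00000058805) on chromosome 13 was also among the 5 most alike with a change of only -1.08. XLOC_023776 lies within the run of 6 such loci on chromosome 2.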

How the data were processed

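RNA-seq was analysed in 6 libraries. For every library the authors deposited a list of events (starts and ends of transcripts, and splicing) with FPKM values. HTSeq 0.6.1, StringTie 1.0.4, HISAT2 2.0.1, SAMtools 0.1.18, Trimmomatic 0.30 and bcl2fastq 2.17.1.14 appear in the submitters' processing notes without their roles. A genome build and an event caller were not given in the sources used here. Repeated event identifiers were dropped and levels computed as described above, with Python 3.11.15 and pandas 2.3.3. Sequence 3 was compared with sequence 2 by limma 3.58.1 in R 4.3.3 on log2(FPKM + 1), with the mean-variance trend, 1 mean for each of the 3 groups and Benjamini-Hochberg adjustment over the 10648 loci that reached an FPKM of 1 in 2 or more libraries. The model was also run on simulated normal values without a floor or unlisted entries, so that run does not bear on loci near the floor. On this scale a fold change understates the change of low loci.

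The members, lists and rules were chosen with earlier results of these data known. All members, the 4 nearest loci above the filter on each side and the 5 most alike loci were named. Planned lists of interferon-related genes and of cell type markers were not analysed here, because no ID was paired with a name. Other pseudocounts, scalings, filters, event sums and left-out libraries were tried.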

Additional observations from a re-analysis of the deposited data

Results flagged for a closer look

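At XLOC_020782, the neighbour to the right of the run, sequence 2 replicate 1 had an FPKM of 30.3 and lay far from the other 3 knockdown libraries, of which sequence 3 replicate 2 had 5.08 and the rest did not list the locus. In groups of 4 without any true outlier, about 1 in 20 would be marked in this way.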

How the results depend on the processing

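All 4 members kept a fall of at least 4-fold without overlap under every pseudocount, scaling, event sum and left-out library tried, and they were chosen for that fall. Their mean change, -4.37 on the log2(FPKM + 1) scale, was -6.22 with a pseudocount of 0.1 and -4.99 with 0.5, by construction larger, and -4.28 to -4.50 when 1 library was left out (-4.28 without sequence 3 replicate 2). The 150 loci with such a fall were 99 to 153 when 1 library was left out, with 105 without control replicate 1 and 99 without control replicate 2, and without either of these only 2 members passed the filter. They were 66 with an FPKM of at least 1 in all libraries, a filter that keeps 1 member, and 210 with a pseudocount of 0.1.

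The 10 loci called between the sequences by limma became 18 from starts alone and 5 from ends alone, 0 with an FPKM of at least 1 in all libraries (510 at an unadjusted p under 0.05) and 0 to 15 when 1 library was left out. There were 0 without sequence 2 replicate 2 (401 at an unadjusted p under 0.05), 1 without its replicate 1 and 15 without sequence 3 replicate 2. The cause was not tested. No member was called under any of these settings in which it passed the filter. The difference at XLOC_020358 changed sign to -0.27 without sequence 2 replicate 2 and to -0.55 without sequence 3 replicate 1, and that at XLOC_020361 to 0.0533 without sequence 3 replicate 2. Over all left-out libraries they ranged from -0.55 to 1.12 and from -0.54 to 0.0533. That at XLOC_020356 stayed above 0, at 0.35 to 0.67 when 1 library was left out (0.67 without sequence 3 replicate 2), and was 0 from ends alone, since no knockdown library listed an end there. Whether the replicate numbers pair the libraries is unknown. Differences between replicates 1 and 2 correlated at -0.0613 (control and sequence 2), 0.178 (control and sequence 3) and -0.0817 (sequence 2 and sequence 3). Those with sequence 3 include its replicate 2, the library that stood apart. The fit with the replicate block called 5 loci and 0 members. Read depth was not among the values, and its limit on these differences is unknown.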
